A study of Mus musculus with 6 samples.

Results

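Transcripts of 9 receptors for neurotrophic and epithelial growth factors were read in GLUTag cells: Ret and its co-receptors Gfra1, Gfra2 and Gfra3, the neurotrophin receptors Ntrk2, Ntrk3 and Ngfr, and the growth factor receptors Egfr and Met. They were taken by gene symbol from a count table of 54281 genes, and all 9 were found. GLUTag cells are a murine enteroendocrine line that secretes GLP-1, established from an intestinal tumour of mice in which the proglucagon promoter drives the large T antigen, so every library comes from the same transformed line. The 6 libraries had a single condition, low glucose medium (1 g/L) with 10% FBS for 48 h on Matrigel. Plate 1 held 3 wells (passage 23) and plate 2 another 3 (passage 27), so that plate and passage cannot be told apart. Wells of a plate are not stated to be separate cultures, so the spread and the p-values below measure only the variation between these wells.

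As background, RET is a receptor tyrosine kinase that does not bind its ligands alone: GDNF, neurturin and artemin are held by the membrane-anchored co-receptors GFRα1, GFRα2 and GFRα3, in that order of preference, and the complex activates RET. TrkB and TrkC, the products of Ntrk2 and Ntrk3, are the kinases for BDNF and neurotrophin-3, while p75NTR, the product of Ngfr, binds all neurotrophins and has a death domain in place of a kinase. Enteroendocrine cells extend basal processes, called neuropods, towards nerves and enteric glia, and glia-derived neurotrophic factors have been proposed to act on them. EGFR and MET are the receptors through which EGF family ligands and hepatocyte growth factor drive the growth of the gut epithelium.

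The libraries were made from transcript 3′ ends, so counts were taken not to depend on transcript length. Counts scaled to the library total (CPM) were compared between genes without length correction. Whether the transcripts of each gene are counted equally well was not tested, so ratios between genes are ratios of counts. The totals lay between 21399987 and 36488198 counts. A count of 0 allowed up to 3 counts, or 0.0822 to 0.14 CPM depending on the library, for counting error only. Plate 2 columns carry no number that fits 1 replicate, and these libraries are called low-depth, mid-depth and high-depth by the rank of their totals within the plate. The mid-depth library stood apart. Among the 5031 genes that averaged 30 CPM or higher, it was lower than the rest of plate 2 by over 2-fold for 346, while no other library exceeded 2 such genes. The high-depth library was higher than the rest of plate 2 by over 2-fold for 46 of them, against 0 to 4 in the others. That rest includes the mid-depth library, so the 46 do not show that the high-depth library stood apart by itself. Levels that the mid-depth library moved most are also given without it, and the plate comparison without either.

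The genes Ntrk2 and Ntrk3, each summed over all its transcripts, made up most of the summed CPM of the 9 receptors. Ntrk2 (ENSMUSG00000055254, chromosome 13 of GRCm38, 58806569 to 59133970, plus strand) was the highest of the 9 genes. It had 69.7, 68.0 and 73.8 CPM in plate 1 replicates 1, 2 and 3, and 85.8, 99.2 and 90.0 CPM in the low-, mid- and high-depth libraries of plate 2. Every plate 2 library was thus above every plate 1 library on this scale, as was so for 35.2% of the 15669 genes tested between the plates. The mean was 81.1 ± 12.5 CPM (SD, n = 6), or 77.4 CPM without the mid-depth library, and 1538 to 3285 counts lay behind each value. Among the 27044 genes counted in any library, 92.0% had a lower mean. Ntrk3 (ENSMUSG00000059146, chromosome 7, 78175959 to 78738012, minus strand) was second, with 17.3, 17.8 and 19.9 CPM on plate 1 and 23.4, 27.2 and 24.0 CPM on plate 2, a mean of 21.6 ± 3.93 CPM (SD, n = 6), or 20.5 CPM without the mid-depth library. Its libraries fell in the order plate 1 then plate 2, as for Ntrk2. The ratio of Ntrk2 to Ntrk3 was nearly fixed, from 3.64 to 4.04 in the 6 libraries. Ntrk2 alone held 66.8 ± 1.33% (SD, n = 6) of the summed CPM of the 9 receptors, and Ntrk2 and Ntrk3 together 84.5 ± 1.37% (SD, n = 6).

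**Figure D1:**
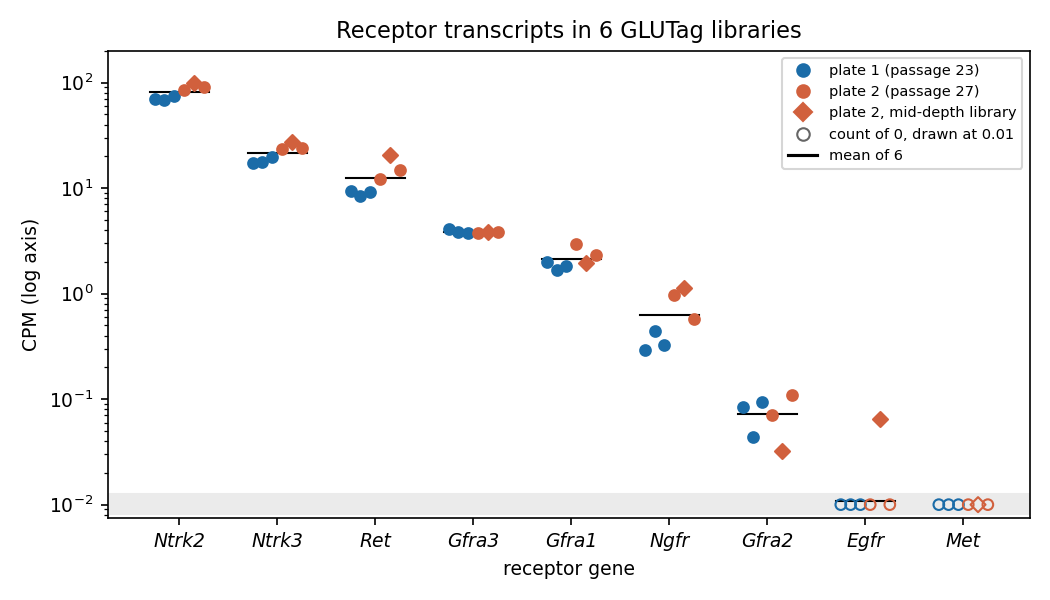
CPM of each receptor gene on a log axis, with 1 point per library, plate 1 in blue, plate 2 in orange, the mid-depth library as a diamond and the mean of 6 as a line. Open symbols at 0.01 in the grey band are counts of 0. Ntrk2 lies at 68.0 to 99.2 CPM, Ntrk3 and Ret follow with ranges that overlap, and Egfr and Met are at the bottom.

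Ngfr (ENSMUSG00000000120, chromosome 11, 95568818 to 95587735, minus strand) was low. Its counts were 7, 10 and 7 on plate 1 and 27, 35 and 21 on plate 2, or 0.622 ± 0.348 CPM (SD, n = 6), and the plates did not overlap, with plate 2 higher, as for 35.2% of genes tested. Without the mid-depth library the mean was 0.52 CPM. The SD was 56% of the mean, where counting alone would give about 23.7% at its mean of 17.8 counts. Genes were set against each other within each library, in 10 pairs given by role, as a log2 ratio after adding 1 CPM to both. The test was a permutation of signs, exact and two-sided, which with 6 libraries reaches no lower than p = 0.031. Ntrk2 exceeded Ntrk3 by 1.87 ± 0.05 (SD, n = 6, exact permutation p = 0.031, adjusted p = 0.0347). Ntrk2 and Ntrk3 exceeded Ngfr by 5.67 ± 0.16 and 3.81 ± 0.15 (SD, n = 6, the same exact p and adjusted p for each). Each order held in 6 of 6 libraries. The test takes no account of the plates that wells share.

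The counts were summed over all transcripts of a gene, which matters for the Trk receptors. Of the 7 protein-coding transcripts that GENCODE M21 lists for Ntrk2, 2 code for 821 residues, the length of the receptor with its kinase, and end 323 and 327 kb from the gene start. The other 5 code for 466 to 492 residues, a length at which TrkB lacks the kinase, and end 72.2 to 130 kb from the gene start. For Ntrk3, 3 transcripts code for 825 to 864 residues, and 3 for 82 to 612. The 3′ ends of the long and the short forms are thus far apart, but the deposited table gives their sum, and the share of kinase-bearing TrkB or TrkC transcripts was not analysed here. The annotation also places 4 other genes within the span of Ntrk2 and 4 within that of Ntrk3. Of these, 4930415C11Rik overlaps an exon of Ntrk2 on the opposite strand and had at most 3 counts, and Gm39038 overlaps an exon of Ntrk3 on the same strand and had at most 1. The highest, Gm9885 opposite Ntrk3, had a mean of 0.793 CPM and lies in no exon of it.

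**Figure D2:**
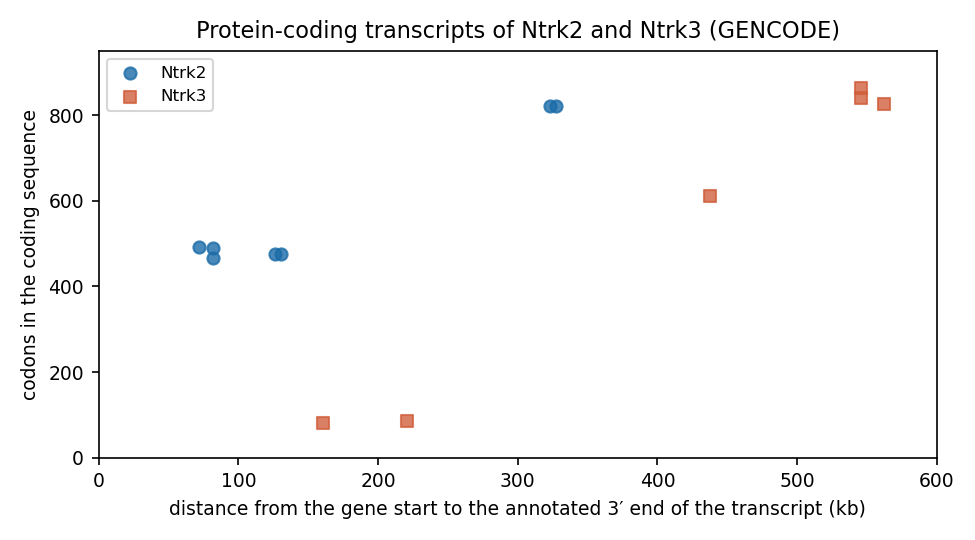
Protein-coding transcripts of Ntrk2 (circles) and Ntrk3 (squares) in GENCODE M21, by the distance in kb from the gene start to the annotated 3′ end and the number of codons. The 2 Ntrk2 forms of 821 codons end 323 and 327 kb from the start and the 5 shorter forms at 72.2 to 130 kb.

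Ret was expressed with co-receptors Gfra1 and Gfra3, and Gfra2 was close to the limit. Ret (ENSMUSG00000030110, chromosome 6, 118151745 to 118197718, minus strand) had 9.42, 8.35 and 9.21 CPM on plate 1 and 12.2, 20.4 and 14.9 CPM on plate 2, in the order of the libraries given above. The plates did not overlap on CPM, again as for 35.2% of genes tested, and the highest value was that of the mid-depth library. The mean was 12.4 ± 4.59 CPM (SD, n = 6), and 10.8 ± 2.68 CPM (SD, n = 5) without that library. Gfra3 (ENSMUSG00000024366, chromosome 18, 34689898 to 34720387, minus strand) was the highest co-receptor, with 4.13, 3.80 and 3.74 CPM on plate 1 and 3.77, 3.82 and 3.86 CPM on plate 2. Its mean of 3.85 ± 0.14 CPM (SD, n = 6) varied by 3.63%, less than the 9.76% that counting alone would give at 105 counts. With TMM scaling, which corrects for a few abundant transcripts, the SD of Gfra3 was 0.462 CPM, so this evenness held only on the CPM scale. Gfra1 (ENSMUSG00000025089, chromosome 19, 58235604 to 58455909, minus strand) had 2.00, 1.68 and 1.82 CPM on plate 1 and 2.96, 1.94 and 2.30 CPM on plate 2, with a mean of 2.12 ± 0.461 CPM (SD, n = 6) and overlapping plates. Gfra2 (ENSMUSG00000022103, chromosome 14, 70890120 to 70979838, plus strand) had 1 to 4 counts per library and 12 in all, a pooled level of 0.0734 CPM with an exact 95% Poisson interval of 0.0379 to 0.128 CPM. It was above 3 counts in 1 library only.

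Within the library, Ret exceeded Gfra3 by 1.40 ± 0.46 and Gfra1 by 2.05 ± 0.44 on the log2 scale (SD, n = 6, exact permutation p = 0.031, adjusted p = 0.0347 for each), in 6 of 6 libraries. Without the mid-depth library these means were 1.25 and 1.89. In linear terms there were 2.20 to 5.34 counts of Ret for each of Gfra3, and 4.12 to 10.5 for each of Gfra1. Set against the 3 co-receptors together, Ret stood at 1.51 to 1.63 on plate 1 and at 1.79 to 3.52 on plate 2, where 3.52 is the mid-depth library. The sum of the 3 co-receptors was 6.04 ± 0.478 CPM (SD, n = 6). Gfra1 was below Gfra3 in 6 of 6 libraries, by a mean log2 difference of -0.65 ± 0.21 (SD, n = 6, exact permutation p = 0.031, adjusted p = 0.0347). The differences of Ret, Gfra1 and Gfra3 from Gfra2 had the same p, but their size depended on the pseudocount: Ret over Gfra2 was 3.58 with 1 CPM, 6.13 with 0.1 CPM and 1.74 with 5 CPM.

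**Figure D3:**
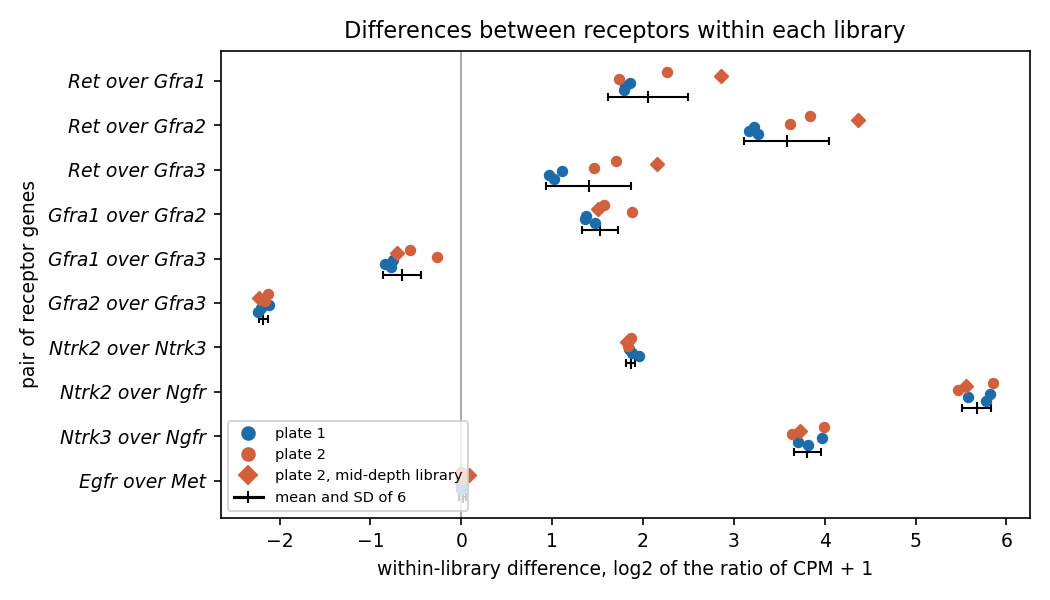
Within-library differences for the 10 pairs of receptor genes, as log2 ratios of CPM + 1, with 1 point per library (plate 1 blue, plate 2 orange, diamond for the mid-depth library) and the mean and SD of 6 below them. Points lie on the same side of 0 in 9 of the 10 pairs, Ntrk2 over Ntrk3 is tight at 1.83 to 1.95, and Egfr over Met sits at 0.

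The epithelial growth factor receptors Egfr and Met were not detectable at this depth with the annotated transcripts. Met (ENSMUSG00000009376, chromosome 6, 17463800 to 17573980, plus strand) had a count of 0 in each of the 6 libraries. Egfr (ENSMUSG00000020122, chromosome 11, 16752203 to 16918158, plus strand) had a count of 0 in 5 libraries and 2 counts in the mid-depth library of plate 2, under the limit of 3. Ntrk2 had 1538 counts in the library where it had fewest, against that limit of 3 for Met and Egfr. Egfr and Met could not be told apart, as both were at 0 in 5 of 6 libraries. In order of level, Ntrk2 was followed by Ntrk3, Ret, Gfra3, Gfra1, Ngfr, Gfra2, Egfr and Met. The ranges of neighbours overlapped for Ntrk3 and Ret, although Ntrk3 was higher in 6 of 6 libraries, and for the 3 genes at the bottom.

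Promoter sequence was compared for the highest receptor and for growth factor receptors under the detection limit. The RefSeq table for GRCm38.p6 held a start for 5 of the 9 genes, namely Gfra1, Ntrk2, Ngfr, Egfr and Met. The 250 bases before the start are shown for Ntrk2 (chr13:58806319-58806568, plus strand) and Egfr (chr11:16751953-16752202, plus strand), 5′ to 3′ and with CG dinucleotides in capitals, since these are the highest receptor and an undetected one whose RefSeq and GENCODE starts coincide.
Ntrk2: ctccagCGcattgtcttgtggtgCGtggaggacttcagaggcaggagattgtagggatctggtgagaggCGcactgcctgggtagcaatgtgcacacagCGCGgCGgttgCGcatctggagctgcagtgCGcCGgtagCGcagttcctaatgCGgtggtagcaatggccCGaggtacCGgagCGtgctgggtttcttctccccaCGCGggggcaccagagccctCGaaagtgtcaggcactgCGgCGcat
Egfr: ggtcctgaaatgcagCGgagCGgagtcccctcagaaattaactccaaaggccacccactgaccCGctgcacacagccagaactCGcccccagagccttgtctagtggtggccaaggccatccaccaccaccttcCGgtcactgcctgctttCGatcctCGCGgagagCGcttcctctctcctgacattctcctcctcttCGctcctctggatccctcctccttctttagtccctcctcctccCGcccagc
Ntrk2 had 19 CG dinucleotides in this window and Egfr 11, while Met had 24, Ngfr 16 and Gfra1 10. The median over all 32851 promoters of this length was 6. The letters GGGCGG, a GC box read on both strands, were found 0 times for Ntrk2 and Gfra1, 1 time for Egfr, 3 times for Met and 4 times for Ngfr, and 32.7% of all promoters held them. All 5 windows were above the median in CG, and Met, with no counts, was the highest, so the level of the gene did not follow this measure in these 5.

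The plates were compared with edgeR's quasi-likelihood test and TMM scaling over 15669 genes, of which 29, or 0.185%, had an adjusted p under 0.05. Of the 9 receptors 6 passed the filter on low counts, and 0 of these 6 were called, with 1 at an unadjusted p under 0.05 (Ret), as were 16.1% of all genes. DESeq2 called 0 of the 5 it tested (3.89% of all genes) and limma-voom 0 of 6 (0.191% of all genes), each with 1 at an unadjusted p under 0.05. The largest difference was that of Ngfr, a log2 fold change of plate 2 over plate 1 of 1.05 (standard error 0.49, edgeR adjusted p = 0.335). For Ret it was 0.55 (standard error 0.21, edgeR adjusted p = 0.238). Without the mid-depth library of plate 2 it was 0.28 for Ret and 0.79 for Ngfr, and without the high-depth library 0.60 and 1.29, with 0 of the 6 called in either fit. Of all genes, 12.0% were called without the mid-depth library and 0.0566% without the high-depth library. Ntrk2, Ntrk3 and Gfra1 gave 0.11, 0.18 and 0.12, and Gfra3 gave -0.29, each with an edgeR adjusted p of at least 0.512. In the same order, these were 0.01, 0.07, 0.21 and -0.33 without the mid-depth library. Without the high-depth library they were 0.13, 0.20, 0.14 and -0.30.

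On TMM-scaled CPM the plates did not overlap for Ret (9.42 to 10.3 against 10.9 to 18.9) and Ngfr (0.319 to 0.498 against 0.524 to 1.05), both higher on plate 2. Of all genes tested, 12.8% were separated in that direction. Gfra3 was lower on plate 2 (4.01 to 4.51 against 3.39 to 3.54), as were 12.0% of all genes. The shares among 6 genes are too few to set against these backgrounds. For Ntrk2 (76.1 to 79.1 against 77.0 to 92.0) and Ntrk3 (18.8 to 21.3 against 21.0 to 25.3) the plates overlapped once TMM scaling was applied. The transcript Bc1 took 9.74% to 12.0% of the counts on plate 1 and 3.44% to 4.77% on plate 2, and with the total count as the only scaling the median gene had a log2 change of 0.30 rather than 0.03. Relative to that median Ret was higher by 0.51 and Ntrk2 by 0.08, and Ret was then called (edgeR adjusted p = 0.0444), as were 9.32% of all genes. The part of Bc1 in the level of any receptor was not tested.

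**Figure D4:**
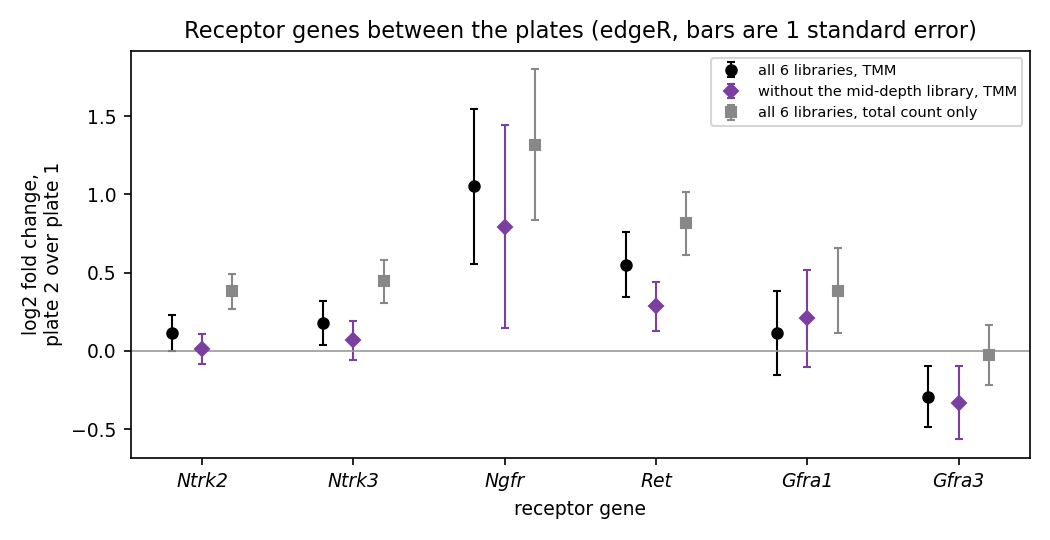
Log2 fold change of plate 2 over plate 1 for the 6 receptor genes that passed the filter, from edgeR, with bars of 1 standard error: all 6 libraries with TMM scaling (black), without the mid-depth library of plate 2 (purple), and with the total count as the only scaling (grey). Grey points lie above black ones for each gene, and the fold change of Ret falls from 0.55 to 0.28 without that library.

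Of the 17 ligand genes listed for these receptors, 6 had more than 3 counts in every library (Nrtn, Bdnf, Ntf5, Tgfa, Btc and Hbegf). Bdnf, the ligand of TrkB, was by far the highest. It had 245, 211 and 229 CPM on plate 1 and 301, 143 and 346 CPM on plate 2, with 4434 to 12640 counts. The low value belonged to the mid-depth library, and the mean was 246 ± 70.8 CPM (SD, n = 6), or 266 CPM without it. There were 3.09 ± 0.852 counts of Bdnf for each of Ntrk2 within the library (SD, n = 6), from 1.45 in the mid-depth library to 3.85. The mean without that library was 3.42. The gene Gm45346, opposite Bdnf, had at most 7 counts. Other neurotrophins were near the limit: Ntf5, for neurotrophin-4, had 4 to 11 counts per library and Ntf3 at most 3.

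Among the ligands of the RET complex, Nrtn, which encodes neurturin and prefers GFRα2, had 1.23 ± 0.277 CPM (SD, n = 6), from 23 to 40 counts. Gdnf had at most 1 count, Artn at most 3 and Pspn at most 2. Gdf15, which acts through GFRAL, had at most 4, and Gfral itself had a count of 0 in each library, as had Gfra4. The EGF family was led by Hbegf with 25 ± 3.45 CPM (SD, n = 6), from 22.0 to 31.2 CPM and with a mean of 23.8 CPM without the mid-depth library, although Egfr was not detectable. Tgfa followed with 1.57 ± 0.694 CPM (SD, n = 6). Egf had 0.39 CPM and Btc 0.361 CPM, Areg had at most 6 counts, and Ereg and Epgn had a count of 0 in each library. Hgf, the ligand of MET, had 2 to 10 counts.

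**Figure D5:**
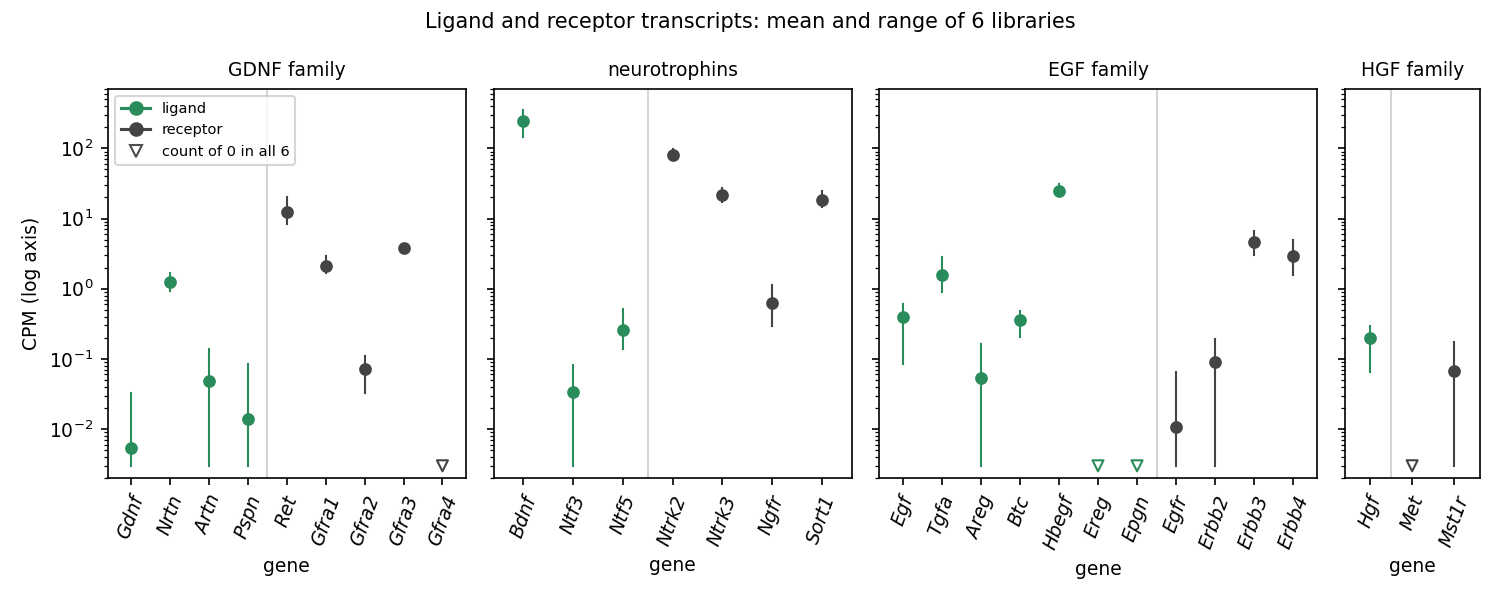
Mean CPM (points) and range over the 6 libraries (lines) of ligand genes (green) and receptor genes (grey), in 4 families on a log axis. Triangles mark a count of 0 in all 6 libraries, and a range that reaches a count of 0 is drawn down to 0.003. Bdnf and Ntrk2 stand highest among the neurotrophins, and in the EGF family Hbegf is present while Egfr is at the bottom.

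Relatives of the 9 receptors were uneven in level, also within a family. Sort1, the sorting receptor that binds pro-neurotrophins with p75NTR, had 18.5 ± 4.11 CPM and its relative Sorcs2 9.68 ± 3.47 CPM (each SD, n = 6). Erbb3, a receptor of neuregulins with little kinase activity, had 4.57 ± 1.29 CPM and Erbb4, which also binds HB-EGF, 2.95 ± 1.47 CPM (each SD, n = 6). Erbb2 had at most 6 counts, and Mst1r, the relative of Met, at most 4. Of these 12 genes, 6 were above 3 counts in every library.

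The wider pathway lists covered ligands and related receptors as well as signalling genes. Of their 98 genes found, 70, or 71.4%, had more than 3 counts in every library, against 56.5% of the 27044 genes counted anywhere, and their median was 5.96 CPM against 0.994 CPM. Among co-receptors and ligand processing genes, 10 of 14 were above that limit. Ncam1, an alternative GDNF receptor, had 429 ± 57.5 CPM, Furin, which cleaves pro-neurotrophins, 174 ± 52.7 CPM, and Adam17, which sheds EGF family ligands, 25.8 ± 5.21 CPM (each SD, n = 6). Furin was lowest in the mid-depth library, at 84.6 CPM, and its mean was 192 CPM without it. Of 24 adaptors and first effectors, 22 were above it. The highest were Bex3 with 587 ± 33.9 CPM and Maged1 with 299 ± 46.3 CPM (each SD, n = 6), whose products bind p75NTR, and Grb2, the adaptor that links receptor kinases to Ras, with 137 ± 12.5 CPM (SD, n = 6). The p75NTR partners thus stood far above Ngfr itself in every library.

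Of 17 negative regulators found, 15 were above 3 counts in every library. Ptpn1, a phosphatase of receptor kinases, had 82.0 ± 10.4 CPM, the receptor phosphatase Ptprs 60.3 ± 21.3 CPM, and the ERK phosphatase Dusp6 53.9 ± 15.9 CPM (each SD, n = 6). Dusp6 was 22.6 CPM in the mid-depth library of plate 2 and 57.3 to 68.8 CPM in the others. The mean of Ptprs was 54.0 CPM without that library and that of Dusp6 60.2 CPM. Of 14 genes known to respond to ERK, 11 were above the limit. Etv1 had 235 ± 22.0 CPM, Etv5 141 ± 25 CPM and Vgf, which neurotrophins induce in neurons, 95.9 ± 15.4 CPM (each SD, n = 6), while Ccnd1 had at most 2 counts. Between the plates, edgeR called 0 of the 73 pathway genes it tested, with 13 at an unadjusted p under 0.05. Of all genes tested, 16.1% had an unadjusted p under 0.05. Limma-voom called 0 of 73, and DESeq2 called 4 of 67 (Furin, Dusp5, Ier2 and Phlda1) against 3.89% of all genes. EdgeR called 8 of 73 without the mid-depth library, where it called 12.0% of all genes. It called 7 of 73 with the total count as the only scaling and 7 of 94 without a filter, against 9.32% and 2.02% of all genes.

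All 9 enteroendocrine markers were above 3 counts in every library, with a summed level of 5695 to 7624 CPM. Of other cells in which these receptors are known, enteric glia were without signal in their defining genes Sox10 and Foxd3, which had a count of 0 in each library, and 1 of the 5 glial markers was above the limit. Of 7 neuronal markers, 5 were above it, with a sum of 1261 to 1576 CPM. Of the 6 enterocyte markers 2 were above the limit, with a sum of at most 1.85 CPM, and of the 6 fibroblast and muscle markers only Col1a2 was. Of the 5 goblet and Paneth markers, Tff3 alone was above it in every library, with 37.8 ± 2.42 CPM (SD, n = 6), while Muc2 had at most 6 counts. Of the 4 crypt stem markers Lgr5 alone was, with 3.19 ± 1.16 CPM (SD, n = 6). Of the 3 endothelial markers, Pecam1 ran from 3.41 to 99.8 CPM, with a mean of 66.0 CPM on plate 1 and 19.9 CPM on plate 2, while Cdh5 and Kdr had at most 3 and 6 counts. None of 5 immune markers was above the limit in every library.

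As a description only, the genes that followed the 3 highest receptors most closely over the 6 libraries were read by Pearson's r of log2(CPM + 1) among the 8657 other genes that averaged 10 CPM or higher. They were Slc35d1, Man2a2 and Scrib for Ntrk2, Crcp, Gm37167 and Sirt5 for Ntrk3, and Hspa5, Faah and Smpdl3b for Ret, with r of at least 0.995. As many as 628 genes reached an r of 0.95 with Ntrk2. The 6 points share plates, passages and the scaling to the total count, whose part in these values was not tested.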

How the data were processed

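3′ mRNA libraries (QuantSeq, forward kit) of 6 wells of GLUTag cells were analysed. The authors trimmed the reads with Trim Galore (0.6.4 per the labels), assigned them with Salmon 1.5.1, without length correction, to GENCODE M23 transcripts with GRCm38 as decoy, and used Tximeta to add up the transcripts of each gene. The deposited file thus gives the authors' expected counts for each gene, estimated by Salmon and not normalized. The number in the plate 2 column names matches no single replicate.

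Counts were divided by the library total to give CPM, and rounded for edgeR and DESeq2. Symbols and positions are from GENCODE M21 on GRCm38. Pairs of genes were compared by an exact sign-flip permutation test with Benjamini-Hochberg adjustment over 10 pairs, at a pseudocount of 1 CPM. Plates were compared with edgeR 4.0.16 (filterByExpr, TMM, robust quasi-likelihood, adjusted p under 0.05), with standard errors taken from the F statistic. DESeq2 1.42.0 and limma-voom 3.58.1 were the alternatives. Python 3.11.15, scipy 1.17.1 and R 4.3.3 were used.

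The members and lists were chosen with earlier results of these data known. Named are the 9 receptors, the listed ligands and the 3 highest genes of each other list. Any list gene called between plates in the main edgeR fit was to be named, and there were 0. Genes called only in the other edgeR fits were counted but not named for it. Erbb4 and genes near a limit, with a count of 0 or called by DESeq2 were named after their values were seen. Of 99 listed pathway genes, 1 (Spry3) was not matched by symbol and is not analysed here, and a few listed genes are not reported here. Any 2 libraries differed by more than sampling noise.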

Additional observations from a re-analysis of the deposited data

Results flagged for a closer look

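Of 34 levels with a mean of at least 10 counts (receptors, named pathway genes, and Tff3, Lgr5 and Pecam1 of the markers), 2 had a library whose gap to the others, as a share of the whole range of the 6 libraries, was above Dixon's critical value. Chance gives about 1 in 20, so 2 of 34 is near that. Gfra3 was highest in plate 1 replicate 1, with 4.13 CPM where the other 5 had 3.74 to 3.86 CPM, and its mean was 3.80 CPM without that library. The range is narrow, and the gap is within the counting error of about 9.76%. Dusp6 was lowest in the mid-depth library of plate 2, with 22.6 CPM where the other 5 had 57.3 to 68.8 CPM, and its mean was 60.2 CPM without it. That library was lower for many genes, and no cause was tested.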

How the results depend on the processing

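The level of Gfra3 moved by more than its SD, to 4.06 CPM, when mitochondrial genes were left out of the total, and the other levels moved by less than 1 SD under TMM, DESeq2's size factors and that total. The 9 differences between receptors other than Egfr and Met kept their direction and their side of the threshold under both scalings and both other pseudocounts (0.1 and 5 CPM), which arithmetic largely fixes for a gene higher in 6 of 6 libraries. The size of these differences changed with the pseudocount, also for pairs without Gfra2. With 5 CPM, Ntrk3 over Ngfr was 2.23 rather than 3.81 and Ret over Gfra1 1.25 rather than 2.05. Gfra1 over Gfra3 was then -0.32 rather than -0.65, and Ntrk2 over Ntrk3 1.69 rather than 1.87. With 5 libraries the smallest exact p is 0.0625, so omissions gave values only. Between the plates, the number of receptors called was 0, and 1 (Ret, log2 fold change 0.81) with the total count as the only scaling. The fold change of Gfra1 reversed to -0.045 without the low-depth library of plate 2, within -0.045 to 0.21 over the omissions. For Ret the omissions gave 0.28 to 0.72. The cause was not tested. The count over all genes was 29, 530 with DESeq2, 545 without a filter, 1461 with the total count only, and 0 to 1911 over the omissions (0 without plate 1 replicate 1 or without the low-depth library, 1911 without the mid-depth one). With a limit of 10 counts, or of 1 CPM, in every library, 5 receptors rather than 6 were above it. Depth limits what can be said of Gfra2, Egfr and Met. Whether the annotated transcripts hold the 3′ ends that these cells use was not tested. No paired analysis was possible because the sample titles number the wells 1 to 6 over both plates, and the plate 2 columns, whose own numbers restart at 1, are matched to no title.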
